A study of Homo sapiens with 24 samples.

Results

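A gene can lie wholly inside another gene and be read in the opposite direction. In the count files of this series, 822 such genes were found. Each has its whole span within the span of a gene on the other strand, called its host here, that spans over 30000 bp. Nested gene and host both had at least 0.5 CPM (counts scaled to the library total) in 3 or more of the 24 libraries, a level that 18451 of 60605 genes reached. The 822 nested genes lie in 695 hosts and form 833 pairs, since 11 nested genes have 2 hosts. Genes inside a host on the same strand (1266 genes, 1495 pairs), chosen by the same limits, are given beside them where the strand matters.

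A nested gene of this kind and its host are transcribed in opposite directions through the same stretch of DNA. The introns of long genes are where most such genes lie, and because splicing removes introns, a nested gene can be a complete unit with its own promoter, exons and polyadenylation site. Many nested genes are antisense long noncoding RNAs or processed pseudogenes, which are copies of messenger RNAs inserted in the genome. SFPQ and NONO are RNA-binding proteins of the nucleus that act in transcription, splicing and polyadenylation, and SFPQ is known to be needed for the full transcription of long genes. Both are core proteins of paraspeckles, nuclear bodies built on the long noncoding RNA NEAT1.

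All libraries came from SBC-3, an established human small cell lung cancer line, as poly(A) RNA taken 72 h after reverse transfection at 10 nM. The knockdown groups are siSFPQ-2 and siSFPQ-3 (small interfering RNAs, siRNAs, to SFPQ), siNONO-3 and siNONO-4 (siRNAs to NONO), with siCtrl, a control siRNA, as their control. ASO-NEAT1-1047 and ASO-NEAT1-1473 are antisense oligonucleotides (ASOs) to NEAT1, with ASO-Ctrl as theirs. Each of the 8 groups has 3 libraries. The labels do not say whether these are separate cultures, and the p-values below cover only how far these libraries vary, which may be technical. A single line limits how far the values carry beyond it.

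Total counts per library ran from 4243196 to 14886353, the lowest in a siSFPQ-2 library. SFPQ RNA stood at 152 to 236 CPM in the siSFPQ libraries and 1203 to 1280 CPM in siCtrl. NONO RNA stood at 58.4 to 76.5 CPM in the siNONO libraries and 384 to 419.7 CPM in siCtrl. NEAT1 did not bear out its labels: it had 245, 332 and 314 CPM in the libraries labelled ASO-NEAT1-1047, 182, 206 and 232 CPM in those labelled ASO-NEAT1-1473 and 219, 292 and 388 CPM in ASO-Ctrl, groups that overlap (both oligos, log2 fold change -0.28, SE 0.20, edgeR adjusted p = 1). Of 8 neuroendocrine small cell markers, INSM1 averaged under 0.1 CPM in all 8 groups, and 2 or 3 of the 8 averaged 1 CPM or more. The 8 summed to 60.3 to 72.4 CPM in siSFPQ-2, 33.7 to 42.6 CPM in siSFPQ-3 and 19.6 to 28.4 CPM in siCtrl libraries. The 3 markers of other small cell classes summed to 293.1 to 356.6 CPM in siSFPQ libraries, 296.0 to 513.6 CPM in siNONO libraries and 366.4 to 429.6 CPM in siCtrl. Of these, a single marker averaged 1 CPM or more: YAP1. The share of counts from mitochondrial genes was 9.59% to 11.6% in siSFPQ libraries and 7.63% to 9.07% in siCtrl, and 8 markers of other cell types summed to 16.7 to 37.5 CPM in siSFPQ and 80.3 to 90.6 CPM in siCtrl libraries. The part of any of these in the results below was not tested.

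Whether a read was given to a gene by its strand decides what the counts of nested genes can show, and the files answer this. Among genes whose every exonic base lies in exons of an opposite-strand gene, 367 of 450 had reads, 23449 in all. Among genes covered in the same way by a same-strand gene, 0 of 596 had a read. Counts were therefore assigned by strand, and a read over 2 genes of a strand was given to neither. The covered genes had, in the median, 1.00% as many reads per base as the gene that covers them, and how much of this was read from the wrong strand cannot be told apart from their own RNA. Of the 376 pairs with overlapping exons, 9 had a nested level per exonic kilobase at or under that share of the host level in every group, and 27 in siCtrl.

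The promoters of some nested genes named below are shown here by the 300 bases around the RefSeq start (build GRCh38.p14, most of them before the start, read 5′ to 3′ on the gene's own strand). The RefSeq table held a window by symbol for 305 of the 822 nested genes, and 302 of these windows lie wholly inside the host, so that the promoter is embedded along with the gene. The count of CG dinucleotides, which mark broadly active promoters when frequent, is shown by capitals in 3 picked genes. Each rose after SFPQ knockdown inside a host that fell. They are examples from 77 such pairs and do not stand for the rest.
LRRN3, chr7:111090877-111091176, plus strand, inside IMMP2L: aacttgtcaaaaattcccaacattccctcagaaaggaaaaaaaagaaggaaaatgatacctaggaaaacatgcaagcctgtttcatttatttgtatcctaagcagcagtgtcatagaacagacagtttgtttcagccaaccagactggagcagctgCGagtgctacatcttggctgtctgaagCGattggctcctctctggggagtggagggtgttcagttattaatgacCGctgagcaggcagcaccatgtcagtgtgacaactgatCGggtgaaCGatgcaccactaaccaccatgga
DLGAP1-AS2, chr18:3603487-3603786, plus strand, inside DLGAP1: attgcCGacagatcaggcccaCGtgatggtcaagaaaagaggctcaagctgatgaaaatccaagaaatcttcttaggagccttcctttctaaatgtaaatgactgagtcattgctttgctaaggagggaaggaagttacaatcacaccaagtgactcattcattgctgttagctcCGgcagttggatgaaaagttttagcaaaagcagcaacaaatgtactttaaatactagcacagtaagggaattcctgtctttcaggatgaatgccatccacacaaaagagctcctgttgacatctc
LRRC4, chr7:128031388-128031687, minus strand, inside SND1: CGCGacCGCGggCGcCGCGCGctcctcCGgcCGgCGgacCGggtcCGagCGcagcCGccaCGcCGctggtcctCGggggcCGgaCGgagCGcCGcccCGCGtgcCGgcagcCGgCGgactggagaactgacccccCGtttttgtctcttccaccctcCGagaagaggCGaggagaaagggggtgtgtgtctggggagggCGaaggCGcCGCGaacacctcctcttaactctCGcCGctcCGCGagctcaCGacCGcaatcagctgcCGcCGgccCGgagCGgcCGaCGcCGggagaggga
These windows hold 5, 3 and 47 CG dinucleotides in the order given, against a median of 20 over the 305 windows of nested genes and 14 over all 35116 windows of the table. A window with 5 or fewer is not rare, at 33.7% of all windows, while 7.61% hold 40 or more. The windows are placed by the RefSeq gene starts, which lie 121, 737 and 670 bases from the gene starts in the count files, in the same order. For DLGAP1-AS2 and LRRC4 the whole window therefore lies inside the gene as counted, past its start in the count files.

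Of the IFIT genes inside LIPA, IFIT1, IFIT3 and IFIT1B are shown with capitals on the motif GAAA, any 2 bases, GAAA. The motif is read on either strand (TTTC on the other) and is the core of the element through which interferon acts on promoters.
IFIT1, chr10:89392373-89392672, plus strand: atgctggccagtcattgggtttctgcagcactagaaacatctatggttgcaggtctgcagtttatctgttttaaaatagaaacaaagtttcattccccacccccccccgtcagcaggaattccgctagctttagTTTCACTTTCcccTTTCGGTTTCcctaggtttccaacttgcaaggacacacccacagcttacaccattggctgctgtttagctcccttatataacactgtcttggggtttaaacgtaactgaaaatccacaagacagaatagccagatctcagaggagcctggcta
IFIT3, chr10:89327747-89328046, plus strand: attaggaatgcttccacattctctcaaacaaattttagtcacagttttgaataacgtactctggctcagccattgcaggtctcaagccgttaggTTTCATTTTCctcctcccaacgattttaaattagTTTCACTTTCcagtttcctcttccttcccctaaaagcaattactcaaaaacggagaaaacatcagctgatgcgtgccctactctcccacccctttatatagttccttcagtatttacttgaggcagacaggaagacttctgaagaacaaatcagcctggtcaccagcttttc
IFIT1B, chr10:89377806-89378105, plus strand: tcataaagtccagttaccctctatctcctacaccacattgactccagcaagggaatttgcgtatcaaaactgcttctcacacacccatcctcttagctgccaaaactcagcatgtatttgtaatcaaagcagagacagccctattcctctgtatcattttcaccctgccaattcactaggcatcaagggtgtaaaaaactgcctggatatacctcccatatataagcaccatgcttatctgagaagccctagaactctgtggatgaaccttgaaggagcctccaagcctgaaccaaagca
IFIT1 has 2 matches, from 116 to 107 and from 103 to 94 bases before the start, IFIT3 has 2, and IFIT1B has none in these letters. On either strand the motif is present in 3.57% of all windows and in 4.59% of the 305 windows of nested genes. TATAAA is in 8.2% of the 305 and 11.5% of all, and GGGCGG in 53.8% of the 305 and 45.0% of all. A match is a run of letters and not a site shown to be used.

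By kind, 357 of the 822 nested genes are annotated as long noncoding RNA, 270 as protein coding, 123 as pseudogenes and 34 as other classes, and 38 have no annotation. They are short genes in long ones: the median span is 4.67 kb for nested genes and 100.9 kb for hosts, and the longest host is EYS at 1987.2 kb. A single exon block was listed for 295 of them, and 447 share no exonic base with any host. Of the hosts, 589 hold 1 nested gene, 85 hold 2, 13 hold 3 and 8 hold 4 or more. Per exonic kilobase, the scale on which genes can be compared, the nested gene was above its host in siCtrl in 319 pairs and below it in 514, with a median log2 ratio of -1.28.

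The question put to each pair was whether nested gene and host moved together when SFPQ, NONO or NEAT1 was targeted. After SFPQ knockdown both were called in the same direction in 193 of the 833 pairs. Of the 822 nested genes, 234 rose and 207 fell (edgeR quasi-likelihood test, adjusted p under 0.05), a share of 53.6%. Over all 18451 genes tested, 65.4% were called, 32.2% higher and 33.2% lower. Among the 695 hosts, 214 rose and 277 fell, 70.6% in all. The median log2 fold change was 0.05 for nested genes, -0.09 for hosts and -0.02 for all genes tested. Nested genes were the lower group in level, with a median of 1.02 CPM in siCtrl against 20.6 CPM for hosts and 8.74 CPM for all genes tested, and low counts limit what can be called.

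The strand of the nested gene went with a difference in these counts whose size depended on the level asked for. Of the opposite-strand genes 28.5% rose and 25.2% fell. Of the 1266 same-strand nested genes, 47.6% rose and 11.3% fell, and their median log2 fold change was 0.91. A gene can enter either list only because the knockdown raised it: 118 opposite-strand and 365 same-strand genes reached 0.5 CPM only through siSFPQ libraries. Without them, 162 opposite-strand genes rose and 206 fell of 704 (median -0.13), and 315 same-strand genes rose and 143 fell of 901 (median 0.33). Among genes at the level in all 3 siCtrl libraries, 118 opposite-strand genes rose and 172 fell of 471 (median -0.16), and 152 same-strand genes rose and 108 fell of 450 (median 0.13). Among opposite-strand genes in pairs with both genes at 5 CPM or more in the control, 36 rose and 76 fell of 155. These are descriptions of the lists, and the difference between the arrangements was not tested. In bulk RNA of a line, fewer cells that express a gene and less RNA per cell cannot be told apart.

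Pair by pair, 193 pairs had both genes called in the same direction after SFPQ knockdown, 89 higher and 104 lower, and 129 had them called in opposite directions. In 77 of the 129 the nested gene rose and the host fell, and in 52 the nested gene fell and the host rose. These counts keep the 118 nested genes that reached 0.5 CPM only through siSFPQ libraries. The 77 against 52 is therefore no measure of a preferred direction. Without these genes, opposite pairs numbered 40, 46 and 21 in hosts of 30 to 100, 100 to 300 and over 300 kb, against 50, 55 and 24 with them. Neither gene was called in 124 pairs. Across the 833 pairs, which share libraries and in part hosts, nested and host changes had a Pearson correlation of 0.19 and a Spearman correlation of 0.16. The median of nested minus host log2 fold change was 0.20, with those 118 genes included. Over the 1495 same-strand pairs, the Pearson correlation was 0.27 and that median was 1.01. Of those pairs, 25.55% had both genes called in the same direction and 18.53% in opposite directions. The shares of the 833 opposite-strand pairs were 23.17% and 15.49%, so such splits are not particular to them. The same-strand counts keep the 365 nested genes that reached 0.5 CPM only through siSFPQ libraries.

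The ratio of nested to host CPM in each library asks the same of single pairs (log2 of the values plus 0.5 CPM, exact 2-sided permutation test over 6 and 3 libraries, adjusted over the pairs of both arrangements). It changed in 315 of the 833 opposite-strand pairs after SFPQ knockdown, 191 with the nested gene higher relative to its host and 124 lower. The 833 pairs include the 118 nested genes that reached 0.5 CPM only through siSFPQ libraries, so 191 against 124 measures no preferred direction. Over the 2328 pairs of both arrangements, 40.9% changed. Each of the 315 stands at the smallest p that the 84 splits allow, 0.0119 and 0.0291 after adjustment, so the test sorts pairs into separated and not separated and does not rank them. The count was 0 without any 1 of siCtrl replicates 1, 2 and 3, and 0 when splits were kept within replicate numbers. In each of these settings fewer splits raise the smallest p.

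**Figure D1:**
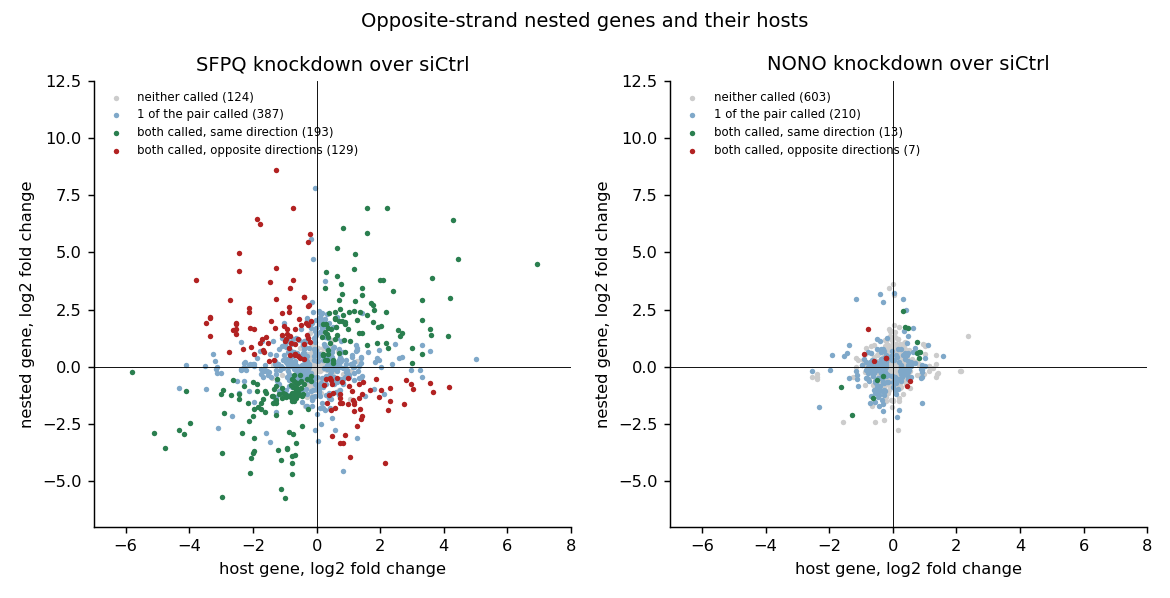
Log2 fold change of each opposite-strand nested gene (vertical axis) against that of its host (horizontal axis) after SFPQ knockdown (left) and NONO knockdown (right), each over siCtrl, 833 pairs per panel; colours mark which genes of the pair were called. After SFPQ knockdown the points spread over all 4 quadrants, with 193 pairs called in the same and 129 in opposite directions, while after NONO knockdown 603 pairs had neither gene called.

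The span of the host sorted the pairs after SFPQ knockdown. In hosts of 30 to 100 kb, the median log2 fold change was 0.12 for nested genes and 0.02 for hosts (392 pairs). In hosts of 100 to 300 kb it was -0.11 for nested genes and -0.15 for hosts (315 pairs). In hosts over 300 kb it was 0.12 for nested genes and -0.90 for hosts, and the median of nested minus host was 1.19 (126 pairs). Hosts over 300 kb fell in 61.9% of these pairs, while the genes inside them rose in 31.7% and fell in 26.2%. Leaving out nested genes that reached the level only through siSFPQ libraries left 108 pairs, with medians of -0.12 for nested genes and -1.03 for hosts. For hosts of 30 to 100 kb that step gave -0.04 for nested genes and -0.01 for hosts (330 pairs). For 100 to 300 kb it gave -0.30 and -0.17 (274 pairs). The median of nested minus host was then -0.07 and -0.21 in these 2 classes, where it had been 0.14 and 0.04. In the same-strand pairs with hosts over 300 kb, the median was 0.68 for nested genes and -0.97 for hosts (212 pairs). Without the genes that entered through siSFPQ libraries, these medians were -0.19 for nested genes and -1.08 for hosts (145 pairs), close to those of the opposite strand. In both arrangements the nested genes of long hosts thus had a median nearer 0 than their hosts.

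**Figure D2:**
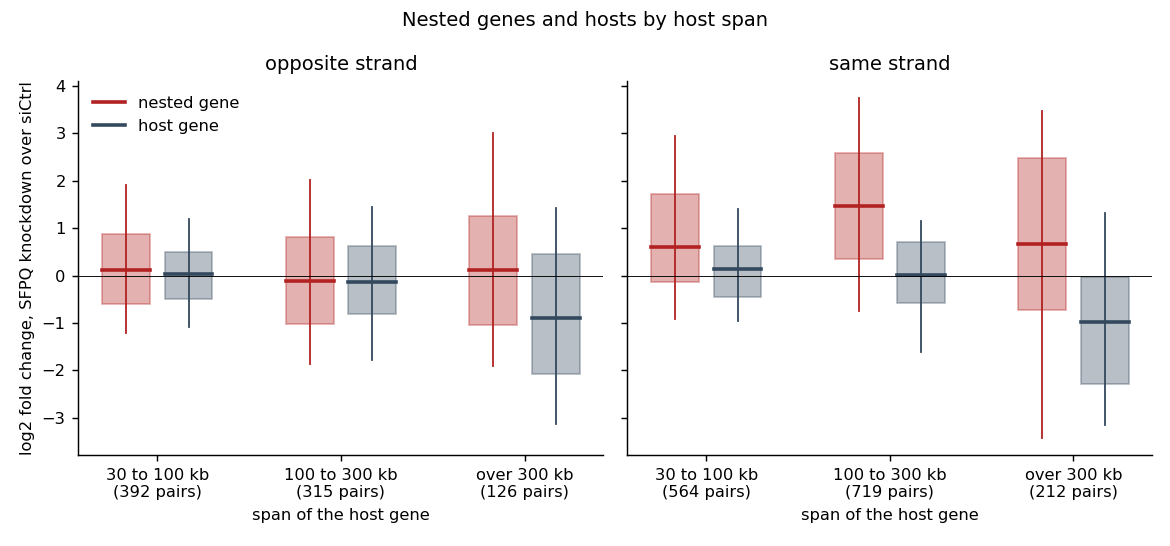
Log2 fold change after SFPQ knockdown over siCtrl for nested genes (red) and hosts (dark) by host span, for opposite-strand (left) and same-strand pairs (right); boxes run from the 25th to the 75th percentile, thick lines are medians and thin lines run from the 10th to the 90th percentile. In opposite-strand hosts over 300 kb the host median was -0.90 and the nested median 0.12.

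Calls after SFPQ knockdown are given here by kind, beside the 65.4% of all genes tested that were called (32.2% higher and 33.2% lower). The levels of the kinds were not compared, and low counts limit what can be called. Protein-coding nested genes were higher in 101 pairs and lower in 96 of 272, and long noncoding ones in 94 and 75 of 362. Among pseudogenes 22 were higher and 26 lower of 125. In the 39 pairs whose nested gene has no annotated kind, the median was 0.30 for nested genes and -0.44 for hosts. Nested genes with 1 exon block had a median of -0.03 and their hosts -0.01 (300 pairs), and those with 2 or more 0.10 and their hosts -0.15 (533 pairs). Pairs with overlapping exons had medians of 0.10 for nested genes and -0.11 for hosts (376 pairs), and pairs with none in common 0.01 and -0.09 (457 pairs).

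Several nested genes rose inside a host that fell. DLGAP1 encodes a scaffold protein of the postsynaptic density and spans 959.3 kb. It had 47.5, 37 and 40.9 CPM in siSFPQ-2, 37.2, 39.4 and 38.3 CPM in siSFPQ-3 and 206, 216 and 236 CPM in siCtrl (log2 fold change -2.45, SE 0.07, edgeR adjusted p = 1.4e-22). Inside it, the long noncoding RNA DLGAP1-AS2 (hg38 chr18:3603000-3608336, plus strand) had 9.75, 8.4 and 13.6 CPM in siSFPQ-2, 15.7, 23 and 18.5 CPM in siSFPQ-3 and 0.541, 0.62 and 0.217 CPM in siCtrl (log2 fold change 5.00, SE 0.32, edgeR adjusted p = 1.68e-14). Every siSFPQ library was high for the nested RNA and low for the host, with no overlap with siCtrl. After NONO knockdown DLGAP1 also fell, by less (log2 fold change -0.28, SE 0.07, edgeR adjusted p = 0.00528), and DLGAP1-AS2 was not called (log2 fold change -0.16, SE 0.49, edgeR adjusted p = 0.879). DLGAP1-AS1, which lies next to it, rose as well (log2 fold change 4.21, SE 0.36, edgeR adjusted p = 1.83e-11). Both are near the 3′ end of the host, at 88.6% and 89.6% of its span from its start. DLGAP1-AS3 and DLGAP1-AS4, at 59.2% and 48.2%, fell with the host, by log2 fold changes of -1.19 and -1.42 (edgeR adjusted p = 1.07e-10 and 3.93e-11). The microRNA gene MIR6718, inside the span of DLGAP1-AS3, had -1.15, SE 0.55, and was not called (edgeR adjusted p = 0.0664). The nested genes of a single host thus took both directions.

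CMSS1, which encodes a protein of the small ribosomal subunit processome, holds FILIP1L, a filamin-interacting protein gene (hg38 chr3:99828811-100114513, minus strand) that covers most of it from the other strand. FILIP1L had 41.4, 22.6 and 11 CPM in siSFPQ-2, 13.9, 24.2 and 10.7 CPM in siSFPQ-3 and 2.08, 1.55 and 0.797 CPM in siCtrl (log2 fold change 3.80, SE 0.55, edgeR adjusted p = 9.56e-06). CMSS1 went the other way, with 6.08, 3.84 and 1.45 CPM in siSFPQ-2, 2.26, 1.57 and 0.948 CPM in siSFPQ-3 and 36.5, 37.5 and 27.2 CPM in siCtrl (log2 fold change -3.79, SE 0.23, edgeR adjusted p = 2.31e-12). Neither gene's siSFPQ libraries overlapped its siCtrl libraries. Per exonic kilobase the means were 3.45 and 2.25 CPM for FILIP1L and 0.526 and 0.221 CPM for CMSS1 in siSFPQ-2 and siSFPQ-3, against 0.204 CPM for FILIP1L and 4.68 CPM for CMSS1 in siCtrl.

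CHRM3 encodes the M3 muscarinic acetylcholine receptor and holds the antisense RNA CHRM3-AS2 (hg38 chr1:239703381-239770130, minus strand). CHRM3-AS2 had 83.3, 90.04 and 118 CPM in siSFPQ-2, 50.7, 45.4 and 43.8 CPM in siSFPQ-3 and 20.2, 29.6 and 30 CPM in siCtrl (log2 fold change 1.34, SE 0.25, edgeR adjusted p = 0.000134). CHRM3 had 6.46, 7.2 and 6.01 CPM in siSFPQ-2, 2.73, 3.02 and 2.49 CPM in siSFPQ-3 and 45.7, 41.4 and 41.4 CPM in siCtrl (log2 fold change -3.34, SE 0.12, edgeR adjusted p = 2.59e-20). The host also fell after NONO knockdown (log2 fold change -0.69, SE 0.10, edgeR adjusted p = 1.35e-05), while CHRM3-AS2 was not called there (log2 fold change 0.58, SE 0.24, edgeR adjusted p = 0.128). LRRC4, a leucine-rich repeat protein of synapses (hg38 chr7:128027071-128032107, minus strand), had 19.4, 19.4 and 18.8 CPM in siSFPQ-2, 31, 29 and 25.8 CPM in siSFPQ-3 and 3.34, 3.62 and 2.1 CPM in siCtrl (log2 fold change 2.98, SE 0.22, edgeR adjusted p = 6.75e-13). Its host SND1, which encodes a nuclease and transcriptional coactivator, fell to means of 85.4 ± 12.7 and 60.4 ± 2.15 CPM in siSFPQ-2 and siSFPQ-3, against 175.1 ± 1.45 CPM in siCtrl (SD, n = 3 each). The CG-rich window printed for LRRC4 and the CG-poor ones of LRRN3 and DLGAP1-AS2 thus belong to genes that rose alike in direction.

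The reverse pattern, a nested gene that fell in a host that rose, is shown among the widest splits by EID1, a single-exon gene for an inhibitor of histone acetyltransferases (hg38 chr15:48878134-48880173, plus strand), inside SHC4, which encodes an adaptor of receptor tyrosine kinases. EID1 had 138, 152 and 129.6 CPM in siSFPQ-2, 144, 156 and 115 CPM in siSFPQ-3 and 266, 287 and 220.4 CPM in siCtrl (log2 fold change -0.89, SE 0.09, edgeR adjusted p = 1.57e-10). SHC4 had 41.8, 46.1 and 45.7 CPM in siSFPQ-2, 67.4, 65.1 and 66.8 CPM in siSFPQ-3 and 3.43, 3.62 and 2.17 CPM in siCtrl (log2 fold change 4.17, SE 0.22, edgeR adjusted p = 6.01e-15). Neither gene's siSFPQ libraries overlapped siCtrl. Among the 8 opposite pairs with the widest split were also 2 unnamed long noncoding genes, ENSG00000266993 in NRDC (2.58 for the nested gene and -2.12 for the host) and ENSG00000274315 in FAR2 (1.92 and -2.53, all log2 fold changes).

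**Figure D3:**
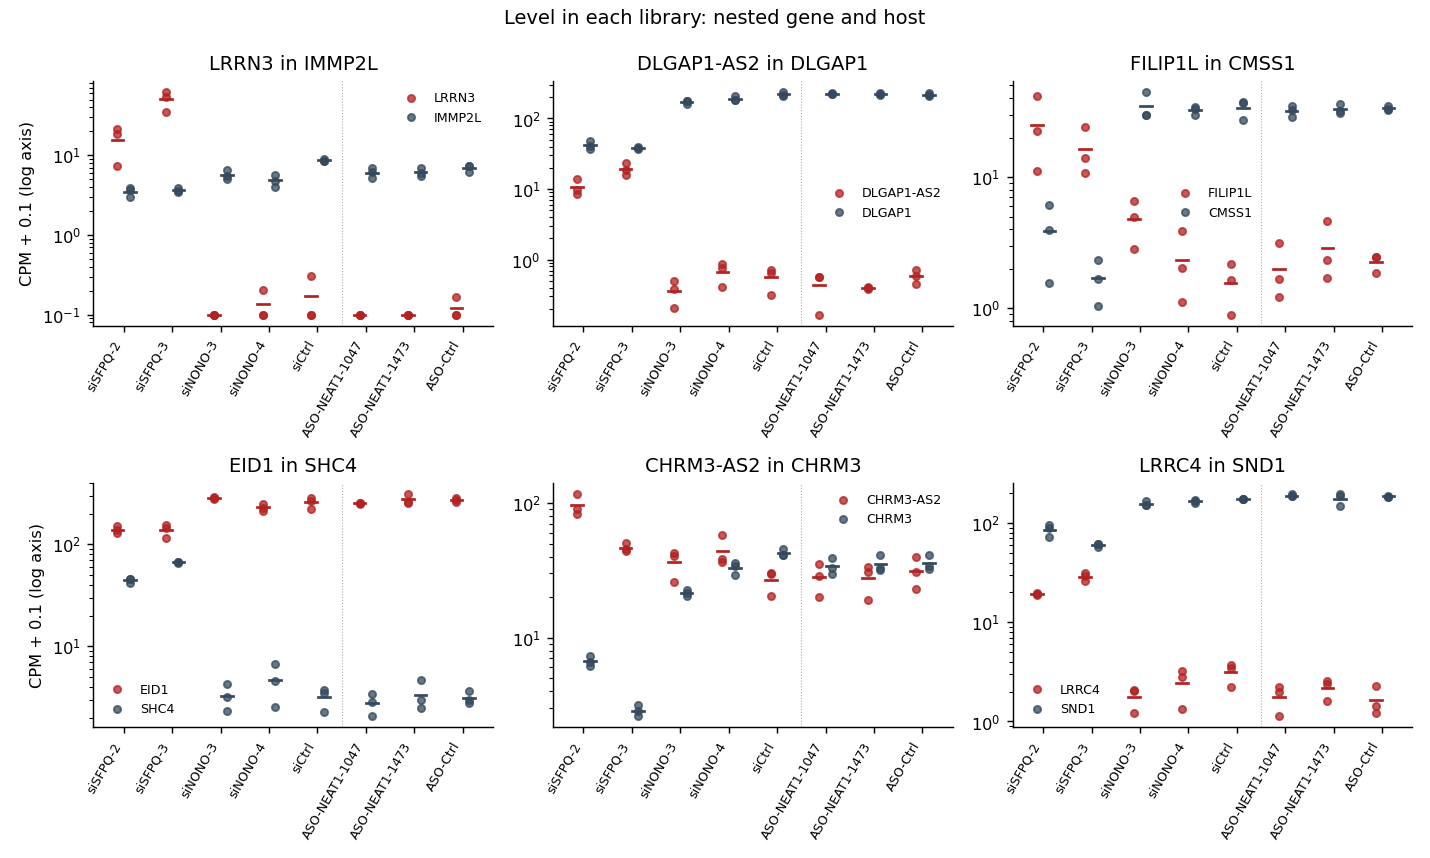
CPM plus 0.1 on a log axis in each library for 6 nested genes (red) and their hosts (dark), by group, with knockdown groups left of their control and a dotted line between the siRNA and ASO arms; points are libraries and bars are group means. In the siSFPQ groups the 2 genes of each pair move towards or past each other, as for FILIP1L at 10.7 to 41.4 CPM against 0.797 to 2.08 CPM in siCtrl, while the ASO groups lie together.

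Among the other large rises, several nested genes had many reads in siSFPQ and a few in siCtrl. Genes this low in siCtrl met the 0.5 CPM level only through other libraries, so the rule itself favours those that rose. LRRN3, a leucine-rich repeat membrane protein gene of the nervous system (hg38 chr7:111091006-111125454, plus strand), had 1576 reads over the 6 siSFPQ libraries and 2 over the 3 siCtrl libraries, a depth-scaled ratio of 575 (95% interval 159 to 4750, counting error only), inside a falling IMMP2L. LPAR6, a lysophosphatidic acid receptor gene inside RB1, had 734 and 2 reads (ratio 268, 73.9 to 2220), and RB1 itself was not called (log2 fold change -0.04, SE 0.08, edgeR adjusted p = 0.706). GLRX, the gene of glutaredoxin, had 254 reads in siSFPQ and 1 in siCtrl (ratio 185, 33.0 to 7350). Its host RHOBTB3, an atypical GTPase gene, rose with it, to 518 to 739.7 CPM, against 97.1 to 153 CPM in siCtrl. GLRX is in turn host to the pseudogene HSPD1P11, which lies on the strand of RHOBTB3 and rose too (log2 fold change 4.49, SE 0.35, edgeR adjusted p = 1.73e-12).

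SCAT8, a long noncoding RNA inside EYS, had 13.8 to 23.9 CPM in siSFPQ and 0.0725 to 0.31 CPM in siCtrl (log2 fold change 6.95, SE 0.33, edgeR adjusted p = 1.25e-17), with the host under 2 CPM in siSFPQ and under 1 CPM in siCtrl. ERVW-1, which encodes the placental envelope protein syncytin-1, had 5.46 to 16.3 CPM in siSFPQ and 0.0902 to 0.362 CPM in siCtrl (log2 fold change 4.95, SE 0.41, edgeR adjusted p = 9.02e-12), inside the unnamed gene ENSG00000244055, which also rose by a log2 fold change of 1.22. LRRC17, a secreted leucine-rich repeat protein gene, had 7.16 to 46.4 CPM in siSFPQ and 1.01 to 2.62 CPM in siCtrl (log2 fold change 3.81, SE 0.55, edgeR adjusted p = 8.31e-06), inside FBXL13, which rose (log2 fold change 2.08, SE 0.42, edgeR adjusted p = 6.98e-05). Of the 10 rises named by size, 5 thus lie in a host that rose, counting GLRX and HSPD1P11 apart, LPAR6 in a host that was not called, and LRRN3, FILIP1L, DLGAP1-AS1 and DLGAP1-AS2 in hosts that fell. SCAT8 and ERVW-1 were also too low in siCtrl to meet the level there. The tally describes the named genes only, since the level asked for and the naming by size both favour rises.

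The 10 falls named by size include genes with falling hosts and with rising ones. IAPP encodes the islet amyloid hormone amylin and lies in SLCO1A2, an organic anion transporter gene. IAPP had 3.54, 2.88 and 3.73 CPM in siSFPQ-2, 1.31, 1.45 and 1.54 CPM in siSFPQ-3 and 22.2, 12.3 and 18 CPM in siCtrl (log2 fold change -2.97, SE 0.34, edgeR adjusted p = 4e-07). SLCO1A2 rose to 22.8 to 29 CPM in siSFPQ, against 10.8 to 16.7 CPM in siCtrl (log2 fold change 0.89, SE 0.18, edgeR adjusted p = 0.000149). MYCBP, the gene of a MYC-binding protein, fell to 8.81 to 15.1 CPM in siSFPQ, against 33.5 to 42.9 CPM in siCtrl, while its noncoding host RRAGC-DT rose (log2 fold change 0.98, SE 0.35, edgeR adjusted p = 0.0161). MGP, matrix Gla protein, fell in siSFPQ (log2 fold change -2.78, SE 0.30, edgeR adjusted p = 2.33e-09) inside C12orf60, which was not called (log2 fold change 0.58, SE 0.31, edgeR adjusted p = 0.106).

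SNAP25, a membrane fusion protein of synapses, fell to 0.711 to 1.92 CPM in siSFPQ, against 7.13 to 8.55 CPM in siCtrl (log2 fold change -2.92, SE 0.26, edgeR adjusted p = 2.38e-11). Its host is its own antisense RNA, SNAP25-AS1, with 1 read over the siSFPQ libraries and 16 over siCtrl. JPX, a noncoding activator of XIST on the X chromosome, shares 57.2% of its exonic bases with exons of its host FTX, also a noncoding RNA of the X-inactivation centre. JPX fell to 82.4 to 97.4 CPM in siSFPQ, against 299.5 to 361 CPM in siCtrl (log2 fold change -1.84, SE 0.08, edgeR adjusted p = 4.96e-19), and FTX fell by nearly as much (log2 fold change -1.76, SE 0.11, edgeR adjusted p = 1.64e-13). TMEM80, a transmembrane protein gene in DEAF1, fell (log2 fold change -1.83, SE 0.20, edgeR adjusted p = 3.29e-09).

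On chromosome 8, POU5F1B and CCAT2 fell together inside the noncoding host CASC8 near MYC. POU5F1B, a retrotransposed copy of the pluripotency factor gene POU5F1, had 1.68 to 2.49 CPM in siSFPQ and 23.8 to 27.8 CPM in siCtrl (log2 fold change -3.62, SE 0.14, edgeR adjusted p = 2.59e-19). CCAT2 lies inside the span of POU5F1B and had 0.119 to 0.967 CPM in siSFPQ and 4.33 to 9.49 CPM in siCtrl (log2 fold change -3.57, SE 0.32, edgeR adjusted p = 9.47e-11), and CASC8 fell less (log2 fold change -0.93, SE 0.18, edgeR adjusted p = 4.6e-05). GINS4, a subunit of the replicative helicase complex, fell to 21.7 to 50.7 CPM in siSFPQ, against 234 to 266 CPM in siCtrl, inside GPAT4-AS1, which fell too (log2 fold change -2.35, SE 0.67, edgeR adjusted p = 0.00287).

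Hosts with several nested genes show how far genes in a stretch shared direction. LIPA encodes lysosomal acid lipase, and its 201.0 kb span holds 4 IFIT genes, a family with members that bind viral RNA or act in the interferon response. LIPA fell to 734 to 1070 CPM in siSFPQ, against 3312 to 3919 CPM in siCtrl (log2 fold change -1.98, SE 0.07, edgeR adjusted p = 2.05e-20). IFIT1 fell with it, to 78.1, 94.4 and 81.6 CPM in siSFPQ-2 and 76.8, 58.6 and 68.3 CPM in siSFPQ-3, against 602, 696 and 653 CPM in siCtrl (log2 fold change -3.10, SE 0.09, edgeR adjusted p = 1.23e-21). IFIT2 rose, to 874, 802 and 888 CPM in siSFPQ-2 and 744, 779 and 740.2 CPM in siSFPQ-3, against 244, 237 and 275 CPM in siCtrl (log2 fold change 1.67, SE 0.09, edgeR adjusted p = 2.62e-16). IFIT3 rose less (log2 fold change 0.56, SE 0.13, edgeR adjusted p = 0.000368), and IFIT1B had 3 reads over the siSFPQ libraries and 17 over siCtrl (ratio 0.129, 0.0242 to 0.445). IFIT1 and IFIT3, whose printed windows both hold the GAAA repeat motif, thus took opposite directions. The noncoding gene ENSG00000232110, whose start lies close to that of IFIT2, was not called (log2 fold change 0.13, SE 0.09, edgeR adjusted p = 0.19).

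HOXB-AS3, a noncoding RNA antisense to the HOXB cluster of homeobox transcription factor genes, fell (log2 fold change -0.69, SE 0.11, edgeR adjusted p = 1.39e-06) while its 4 nested genes rose. HOXB5 had 20.6 to 32.3 CPM in siSFPQ and 6.82 to 11.1 CPM in siCtrl (log2 fold change 1.66, SE 0.15, edgeR adjusted p = 6.5e-11). HOXB4, HOXB6 and ENSG00000257178 rose by log2 fold changes of 0.53 to 0.56 (edgeR adjusted p = 1.72e-07 to 0.00348). The 4 noncoding genes in FAR2 rose, by 1.45 to 1.92, while the host fell (log2 fold change -2.53, SE 0.33, edgeR adjusted p = 1e-06). In RFTN1, which rose (log2 fold change 1.18, SE 0.27, edgeR adjusted p = 0.000324), 3 of 4 noncoding genes fell, with log2 fold changes of -1.56 to -1.95, and ENSG00000271964 had -0.58, SE 0.48 (edgeR adjusted p = 0.295). In SUN2, 2 of 5 rose, at low counts, and 3 were not called, as was the host. In DNM1L, 1 of 4 rose and neither the other 3 nor the host were called. The unnamed host ENSG00000141979 had 4, of which 3 rose, with the host at 32 reads in siSFPQ and 2 in siCtrl.

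**Figure D4:**
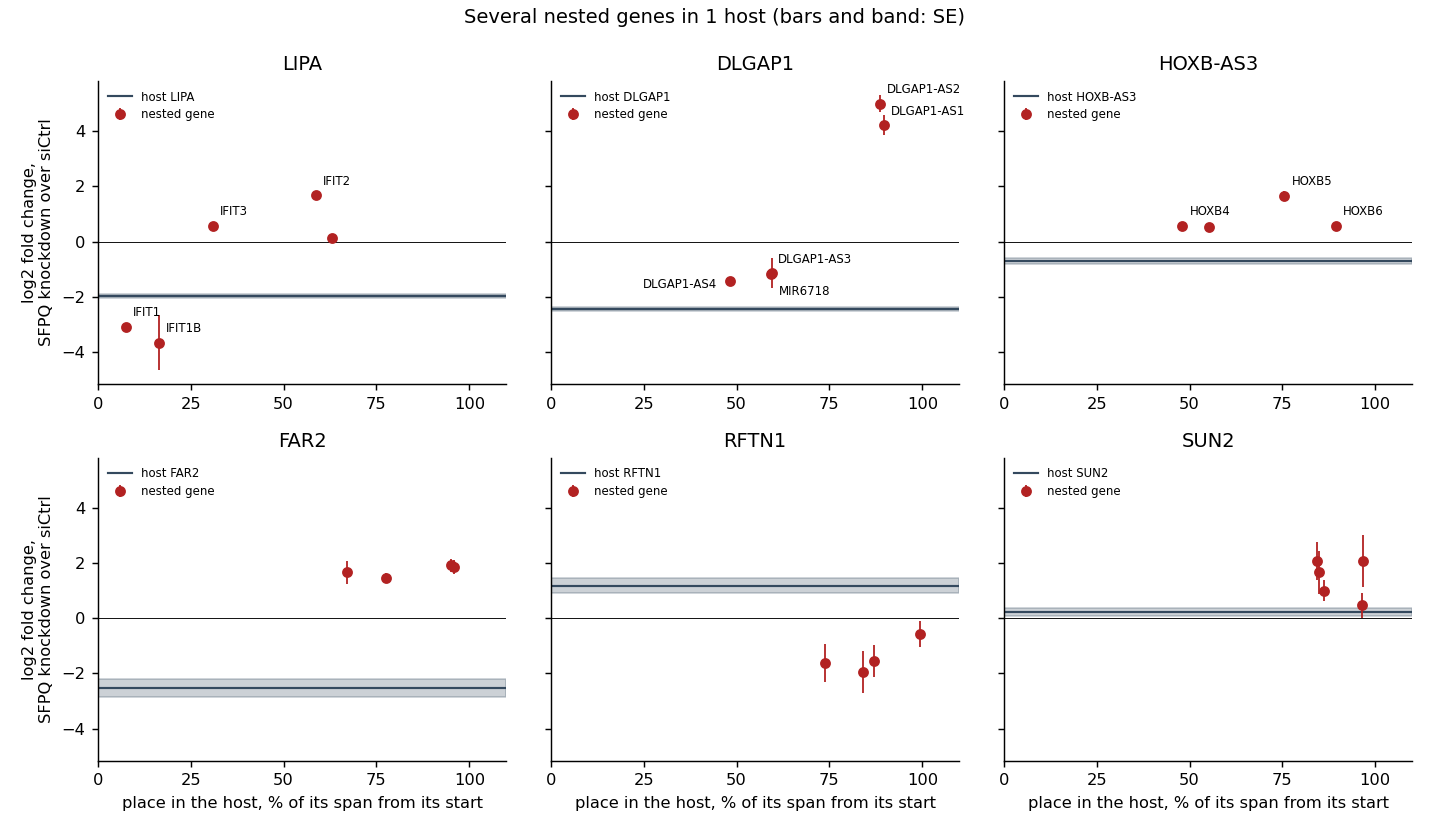
Log2 fold change after SFPQ knockdown over siCtrl for nested genes (red points, bars SE) by place along the host, from the host's start at 0% to its end at 100%, in 6 hosts with 4 or more; the dark line and band are the host's own change and SE. DLGAP1-AS1 and DLGAP1-AS2 lie above 4 while the host stands at -2.45, and in HOXB-AS3 and FAR2 all 4 nested genes lie above the host.

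By function, genes whose symbols mark G protein-coupled receptors that rose after SFPQ knockdown include LPAR6, GPR183, GPR146 and, as an antisense RNA and not a receptor, CHRM3-AS2. GPR183, an oxysterol receptor gene inside UBAC2, had 42 reads in siSFPQ and 0 in siCtrl, at least 10.2-fold higher against a floor of 3 counts over the siCtrl group. With 0 reads in siCtrl, GPR183 met the level of the rule only through other libraries. UBAC2 fell (log2 fold change -1.78, SE 0.08, edgeR adjusted p = 2.03e-18). GPR146 (log2 fold change 1.05, SE 0.36, edgeR adjusted p = 0.0129) lies in C7orf50, which fell (log2 fold change -1.52, SE 0.16, edgeR adjusted p = 8.07e-10). Of 4 leucine-rich repeat membrane protein genes, LRRN3 and LRRC4 rose and FLRT1 fell (log2 fold change -1.15, SE 0.46, edgeR adjusted p = 0.0317). LRRTM3, which lies in the alpha-catenin gene CTNNA3, was not called (log2 fold change 0.56, SE 0.55, edgeR adjusted p = 0.379), while CTNNA3 fell to 1.19 to 2.38 CPM in siSFPQ, against 11.9 to 25.7 CPM in siCtrl. These calls are on the mean of both siRNAs, which differed over the 4 genes. With siSFPQ-2 alone 3 were called higher and 0 lower, and with siSFPQ-3 alone 2 higher and 1 lower.

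Of 24 ZNF symbols, 11 rose and 5 fell after SFPQ knockdown. ZNF165 (log2 fold change 1.91, SE 0.25, edgeR adjusted p = 9.69e-08) and ZNF433 (log2 fold change 1.65, SE 0.16, edgeR adjusted p = 1.6e-10) were among those that rose, and ZNF750, an epidermal differentiation factor gene (log2 fold change -2.39, SE 0.70, edgeR adjusted p = 0.00379), fell with its host TBCD. None of 4 small nucleolar RNA genes was called. TIMP1, a metalloproteinase inhibitor gene inside the synapsin gene SYN1, rose to 22 to 40 CPM in siSFPQ, against 13.6 to 14.5 CPM in siCtrl (log2 fold change 0.95, SE 0.15, edgeR adjusted p = 3.17e-06). SYN1 was not called. OMG, EVI2A and EVI2B of NF1, LRRTM1, LRRTM2, TIMP3 and TIMP4 did not meet the rule. The background of 65.4% of genes called after SFPQ knockdown stands beside all of these counts.

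NONO knockdown moved far fewer nested genes. Of the 822, 35 rose and 40 fell, 9.12% in all, against 14.7% of all genes tested (6.06% higher and 8.67% lower). Among the hosts, 44 rose and 98 fell, 20.4% in all. Without siCtrl replicate 1, 43 nested genes and 89 hosts were called. Neither gene was called in 603 of the 833 pairs, both were called in the same direction in 13, and in opposite directions in 7. These shares were 1.56% and 0.84%, against 1.81% and 1.07% of the 1495 same-strand pairs. Without siCtrl replicate 2, 2 pairs were called in opposite directions. With replicate number as a block in the fit, which the labels do not call for, the counts were higher. They were then 114 nested genes, 213 hosts and 16 opposite pairs. The nested to host ratio was called changed in 0 of 833 pairs by the exact permutation test, with 137 at an unadjusted p under 0.05 and 64 at the smallest p of 0.0119. The smallest adjusted p was 0.125. With 221 of the 2328 pairs of both arrangements at the smallest p, this test could call no pair, however large its change. Its 0 does not show that ratios were unchanged. The difference between the effects of SFPQ and NONO itself was called for 261 nested genes higher and 224 lower after SFPQ knockdown, against 70.7% of all genes tested (35.1% higher and 35.6% lower).

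The single siRNAs gave like counts for SFPQ. siSFPQ-2 raised 208 nested genes and lowered 164, where 59.1% of all genes were called (29.6% higher and 29.5% lower). siSFPQ-3 raised 216 and lowered 194, where 61.5% were called (31.0% higher and 30.4% lower). The 2 differed from each other in 28 nested genes higher and 27 lower in siSFPQ-2, against 11.9% of all genes (4.76% higher and 7.15% lower). siNONO-3 raised 40 nested genes and lowered 44, where 16.5% of all genes were called (7.22% higher and 9.32% lower). siNONO-4 raised 22 and lowered 20, where 8.99% were called (3.98% higher and 5.0% lower). They differed in 17 nested genes higher and 20 lower in siNONO-3, against 8.06% of all genes (3.78% higher and 4.28% lower).

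TRIM22, an antiviral ubiquitin ligase gene inside the related TRIM5, had the largest rise after NONO knockdown among nested genes named by size, a rule that asks for a group mean of at least 5 CPM. It had 44.2, 29.7 and 43.7 CPM in siNONO-3, 20.4, 15 and 18.2 CPM in siNONO-4 and 5.23, 4.44 and 5.07 CPM in siCtrl (log2 fold change 2.42, SE 0.20, edgeR adjusted p = 4.09e-09). Every siNONO library lay above every siCtrl library, and TRIM5 rose less (log2 fold change 0.34, SE 0.10, edgeR adjusted p = 0.0168). TP53I3, a quinone oxidoreductase gene induced by p53 and nested in FAM228B, had 60.7, 42.8 and 45.1 CPM in siNONO-3, 32.5, 27 and 22.4 CPM in siNONO-4 and 18.7, 15.6 and 15.7 CPM in siCtrl (log2 fold change 1.14, SE 0.13, edgeR adjusted p = 2.37e-07). TP53INP1, another p53-induced gene, inside NDUFAF6, rose to 61.6 to 74 CPM in siNONO, against 34.9 to 45.2 CPM in siCtrl (log2 fold change 0.76, SE 0.12, edgeR adjusted p = 3.75e-05). Neither FAM228B nor NDUFAF6 was called.

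PDC, the gene of phosducin, a photoreceptor regulator of G proteins, rose to 8.74 to 12.9 CPM in siNONO, against 3.55 to 4.86 CPM in siCtrl, inside PDC-AS1 (log2 fold change 1.36, SE 0.20, edgeR adjusted p = 2.11e-05). After SFPQ knockdown PDC fell (log2 fold change -1.15, SE 0.24, edgeR adjusted p = 0.000132), and the difference between the targets (SFPQ minus NONO) was -2.51, SE 0.19 (edgeR adjusted p = 8.16e-13). LINC01235 (log2 fold change 1.09, SE 0.19, edgeR adjusted p = 0.000851) and RBKS, the ribokinase gene (log2 fold change 0.69, SE 0.16, edgeR adjusted p = 0.00643), complete the 6 rises named by size. RBKS was not called without siCtrl replicate 1 (edgeR adjusted p = 0.0569).

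MMP24, a membrane-type metalloproteinase gene inside MMP24OS, had the largest named fall after NONO knockdown and the opposite change after SFPQ knockdown. It had 2.46, 1.81 and 1.41 CPM in siNONO-3, 2.47, 3.01 and 2.66 CPM in siNONO-4 and 5.59, 9.2 and 10.5 CPM in siCtrl (log2 fold change -1.90, SE 0.32, edgeR adjusted p = 0.000309). In the siSFPQ libraries it stood at 22.1 to 45.4 CPM (log2 fold change 1.91, SE 0.27, edgeR adjusted p = 3.26e-06), and the difference between the targets (SFPQ minus NONO) was 3.82, SE 0.25 (edgeR adjusted p = 2.89e-11). B3GNT5, a glycosyltransferase gene of lacto-series glycolipids inside MCF2L2, did likewise, with 7.55 to 12.6 CPM in siNONO and 104 to 141 CPM in siSFPQ, against 16.7 to 23.3 CPM in siCtrl. The same difference was 3.68, SE 0.19 (edgeR adjusted p = 1.81e-12). The host MCF2L2 was not called after NONO knockdown (log2 fold change -0.57, SE 0.30, edgeR adjusted p = 0.217).

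The other named falls after NONO knockdown were AKAP5, a kinase anchoring protein gene in ZBTB25 (log2 fold change -0.89, SE 0.17, edgeR adjusted p = 0.000298), SNAP25 (log2 fold change -0.83, SE 0.20, edgeR adjusted p = 0.00438), HOXA-AS2 in HOXA3 (log2 fold change -0.69, SE 0.14, edgeR adjusted p = 0.000824) and the pseudogene HMGN2P5 in TJP1 (log2 fold change -0.66, SE 0.14, edgeR adjusted p = 0.0013). AKAP5 averaged 5.97 CPM in siNONO-3, 8.19 CPM in siNONO-4 and 12.9 CPM in siCtrl. The other control stood apart from siCtrl too: ASO-Ctrl averaged 6.96 CPM (log2 difference to siCtrl -0.91, SE 0.19, edgeR adjusted p = 0.0231). Between the controls, 3 nested genes were called (2 higher and 1 lower in ASO-Ctrl), against 0.385% of all genes (0.103% higher and 0.282% lower). The other 2 were PTX3, a soluble pattern recognition protein gene (0.62, edgeR adjusted p = 0.00357), and TDGF1, a Nodal co-receptor gene (0.93, edgeR adjusted p = 0.0496).

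The 7 pairs called in opposite directions after NONO knockdown include the ubiquitin pseudogene UBBP2, which had 24.1, 26.6 and 34.2 CPM in siNONO-3, 19.8, 19.8 and 25.2 CPM in siNONO-4 and 16.6, 14.6 and 18.5 CPM in siCtrl (log2 fold change 0.57, SE 0.14, edgeR adjusted p = 0.00385). Its host SPATA17, a gene of spermatogenesis, fell (log2 fold change -0.91, SE 0.15, edgeR adjusted p = 9.19e-05). TMEM80 fell (log2 fold change -0.83, SE 0.18, edgeR adjusted p = 0.00166) while DEAF1, a transcription factor gene, rose (log2 fold change 0.43, SE 0.12, edgeR adjusted p = 0.011). CLN8-AS1 fell (log2 fold change -0.61, SE 0.16, edgeR adjusted p = 0.00836) while CLN8, a gene of endoplasmic reticulum transport, rose (log2 fold change 0.53, SE 0.13, edgeR adjusted p = 0.00609). RPL35A, a ribosomal protein gene, rose (log2 fold change 0.25, SE 0.08, edgeR adjusted p = 0.038) while IQCG fell (log2 fold change -0.61, SE 0.19, edgeR adjusted p = 0.0288). Leaving out single libraries ended the call of at least 1 gene in the last 3 of these pairs, with RPL35A at an edgeR adjusted p of 0.0526 to 0.116 and IQCG at 0.0511 to 0.109 where lost. DEAF1 was lost without siCtrl replicate 2 (edgeR adjusted p = 0.0781). CLN8 and CLN8-AS1 were lost without siCtrl replicate 1 (0.0528 and 0.0674), CLN8 without replicate 2 (0.0664) and CLN8-AS1 without replicate 3 (0.0676). The other 3 pairs were HMGA2-AS1 (log2 fold change 1.66) in HMGA2 (-0.78), ZNF654 (0.37) in CGGBP1 (-0.21) and NOP16 (0.37) in ARL10 (-0.22).

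In the libraries labelled for NEAT1, 0 of 822 nested genes and 0 of 695 hosts were called by edgeR, as were 0 of all 18451 genes (0.0%). At an unadjusted p under 0.05 there were 23 nested genes and 14 hosts, and DESeq2 called 0 of either. The nested to host ratio was called changed in 0 pairs by the exact permutation test, with 28 at an unadjusted p under 0.05. With 35 pairs of both arrangements at the smallest p, the smallest adjusted p was 0.792. Here too the test could call no pair, and its 0 does not show unchanged ratios. The opposite pairs named for SFPQ lay together in the ASO arm: LRRC4 had 1.03 to 2.45 CPM in the NEAT1 libraries and 1.13 to 2.18 CPM in ASO-Ctrl, and SHC4 had 1.96 to 4.54 CPM and 2.65 to 3.53 CPM.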

How the data were processed

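RNA of SBC-3 cells was sequenced as poly(A) RNA (KAPA RNA HyperPrep) in 24 libraries. Per the submitters' processing notes, cutadapt 4.2, STAR 2.7.5a, featureCounts (Subread 2.0.3) and DESeq2 1.38.1 were used with build hg38. The authors deposited raw counts per gene with exon coordinates and strand. Neither the annotation release nor how multi-mapping reads were handled is given in the sources used here, so values of pseudogenes and close paralogs are uncertain.

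Nested genes were found from the deposited coordinates. edgeR 4.0.16 (TMM scaling, robust quasi-likelihood fit over all 24 libraries, R 4.3.3) tested 18451 genes with at least 0.5 CPM in 3 libraries, with Benjamini-Hochberg adjustment and a threshold of 0.05. Each target was the mean of its 2 oligos minus the control of its arm. On simulated counts for the SFPQ comparison (18451 genes), 79% of genes changed by a log2 fold change of 1 and 99% by 2 were recovered, and 5.82% of calls were false. The changed genes were few and drawn from those above a floor of reads, so the recovery need not hold for low nested genes. Total counts of 4243196 to 14886353 limit the precision of low genes, and intervals cover counting error only.

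Genes were named as the 10 largest rises and 10 largest falls (SFPQ) or 6 and 6 (NONO) among genes with a regular symbol, called with both oligos in the same direction and with a group mean of at least 5 CPM. Added to these were the 8 (SFPQ) and 4 (NONO) opposite pairs with the widest split and both genes at 5 CPM in a group, fixed and function lists, and hosts with 4 or more nested genes. The members and lists were chosen with earlier results of these data known. Alternatives covered scaling, filters, DESeq2 1.42.0, subsets of pairs, left-out libraries and a replicate block. Some genes of the lists are not reported here.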

Additional observations from a re-analysis of the deposited data

Results flagged for a closer look

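Among nested genes named for their rise, fall or opposite pair after knockdown of a target, 6 differed between the 2 siRNAs to that target by a test of the difference itself (edgeR, adjusted over all genes tested). Genes named by lists or for the other target are not counted in the 6. Over all genes tested, 11.9% differed between siSFPQ-2 and siSFPQ-3 and 8.06% between siNONO-3 and siNONO-4. Such a difference is therefore not particular to the 6. Between siSFPQ-2 and siSFPQ-3, LRRN3 differed by -1.722 on the log2 scale (adjusted p = 0.00391), with log2 fold changes of 7.77 and 9.49 over siCtrl. DLGAP1-AS2 differed by -0.817 (adjusted p = 0.0154), with 4.59 and 5.41. HSPD1P11 differed by -0.816 (adjusted p = 0.0385), with 4.08 and 4.90. CHRM3-AS2 differed the other way, by 1.061 (adjusted p = 0.0145), with 1.87 and 0.81. Between siNONO-3 and siNONO-4, TP53I3 differed by 0.857 (adjusted p = 9.35e-05), with 1.57 and 0.71, and TRIM22 by 1.133 (adjusted p = 0.000265), with 2.99 and 1.85. In each of the 6 both siRNAs gave the same direction, but the naming rule required this of all except CHRM3-AS2, which was named by its opposite pair.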

How the results depend on the processing

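No called change of a named gene turned sign under an alternative, but the balance of higher and lower calls did. SFPQ knockdown called 234 nested genes higher and 207 lower, against 125 and 126 with hosts over 100000 bp. NONO knockdown called 35 higher and 40 lower, against 38 and 35 under upper quartile scaling. Restricting the pairs lowers counts because fewer genes are counted. With hosts over 100000 bp, SFPQ knockdown called 251 nested genes, 268 hosts and 79 opposite pairs, and NONO knockdown 47, 72 and 2. With no exonic base in common, SFPQ gave 235, 279 and 70, with 181 changed ratios, and NONO 45, 88 and 4. With both genes at 5 CPM or more in the control, SFPQ gave 112 nested genes (36 higher and 76 lower), 107 hosts and 32 pairs, and NONO 37 nested genes and 41 hosts.

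Leaving out 1 library at a time, SFPQ knockdown called 385 to 428 nested genes, 447 to 488 hosts and 105 to 124 opposite pairs. NONO knockdown called 43 to 72 nested genes and 89 to 133 hosts, the lowest of both without siCtrl replicate 1, and 2 to 6 opposite pairs, the lowest without siCtrl replicate 2. NEAT1 gave 0 to 1 nested genes, the 1 without ASO-Ctrl replicate 3. Changed ratios after SFPQ knockdown numbered 0 to 339, with 0 whenever a siCtrl library was left out, where 28 splits raise the smallest p.

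Same-numbered libraries deviated together with correlations of 0.0099 to 0.2258 in the SFPQ comparison, 0.0846 to 0.2565 for NONO and 0.0851 to 0.3431 for NEAT1, with 5, 7 and 8 of 9 pairs over 0.1. Since not every pair passed 0.1, the numbers were not taken to pair the libraries. Of 9 libraries each, 7, 9 and 9 lay closest to their own number, a hint from the data and not the design. With the replicate block, NONO knockdown called 114 nested genes and 16 opposite pairs, SFPQ knockdown called 459 nested genes, and the blocked ratio test gave 0, with 27 splits. DESeq2 called 410 nested genes for SFPQ and 71 for NONO.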
